A study of Rattus norvegicus with 224 samples.

Results

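Rat aortic smooth muscle cells held in 25 mM glucose were compared with the same cells in 5 mM glucose, 6 h into drug or solvent treatment and without insulin. The comparison used the vehicle arrays of the 6 h time point in all 7 drug conditions, matched by drug and dose and by the replicate run (A to D) in which they were made. It held 55 of the 224 arrays of the series, 27 in 25 mM and 28 in 5 mM glucose, which formed 27 matched pairs. The cells were explanted from the aortas of newborn rat pups and made quiescent in low serum, and glucose at either level was set in the last 24 h of quiescence, per the design text. All 55 cultures received PBS vehicle in place of 100 nM insulin. They were then treated for 6 h with DMSO alone, with rapamycin at 0.01, 1 or 100 ng/mL, or with paclitaxel at 0.01, 1 or 1000 ng/mL. Each combination of drug dose and glucose had 4 arrays, 1 per run, except 3 for 0.01 ng/mL rapamycin in 25 mM glucose. Rapamycin blocks mTOR signalling and paclitaxel freezes microtubules, and 6 of the 7 conditions averaged here contained a drug. The design text puts 5 mM glucose as normal and 25 mM as high glucose. No source used here gives the strain, an osmotic control or the origin of the runs in different animals or cultures. The p-values therefore measure the spread between these arrays.

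Smooth muscle cells of the artery wall take up glucose mainly through the transporter GLUT1, which is encoded by Slc2a1, and break most of it down by glycolysis. Glucose phosphates are sensed by the transcription factors MondoA and ChREBP, whose best known target is the thioredoxin-binding gene Txnip. Sustained high glucose is linked in these cells to protein kinase C activity, oxidants, TGF-beta signalling and the matrix genes Spp1 (osteopontin) and Fn1 (fibronectin).

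RNA of the cells was labelled with Cyanine-5 and hybridised beside Cyanine-3 reference RNA from whole newborn pups. The deposited values were scores that the authors had standardized, and all 224 arrays had mean 0 and SD 1, so every value here is a number of array SDs and not a log2 fold. A score near 0 lies near the average of its array after the authors' centring, and it does not give a level relative to other genes. Higher likely means more RNA in the cells, because they carried Cyanine-5 and array ratios are usually taken over Cyanine-3. With the ratio turned, every direction here turns with it. Array medians ran from -0.098 to 0.094 in 25 mM and from -0.066 to 0.056 in 5 mM glucose. One more vehicle array, run A at 0.01 ng/mL rapamycin and 25 mM glucose, was left out. It matched the insulin array of the same run, dose and glucose at r = 0.99993, with 99.5% of scores within 0.01, while the next most similar pair of arrays reached 0.705. Of the smooth muscle contractile genes 16 of 22 had a probe under their symbol, and Acta2 and Myh11 had none. Lists of endothelial, leukocyte, adventitial fibroblast, cartilage and bone, and striated muscle markers held 8, 7, 5, 5 and 12 measured genes, of which 0 passed an adjusted p of 0.05 by limma and 1 an unadjusted p of 0.05. Their median differences lay between -0.230 and 0.027. The mean endothelial score per array ran from -0.843 to 0.805 in 25 mM and from -0.915 to 0.687 in 5 mM glucose, and the mean striated muscle score from -0.858 to 0.746 and from -0.977 to 1.36. Since scores are centred, the presence or absence of a cell type could not be read from them.

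The first question was which genes differed between the glucose levels. Among genes that rose in 25 mM glucose were the matrix gene Spp1, the G protein regulator gene Rgs3 and the galactose enzyme gene Galt. Genes that fell included the proliferation genes Mki67 and Pimreg, the hypoxia-linked gene Higd1a, the transcription factor gene Sox4, the prostacyclin synthase gene Ptgis and the lysophosphatidic acid receptor gene Lpar1. In a linear model (limma) with run as a block, 53 of 11575 probes passed an adjusted p of 0.05 (Benjamini-Hochberg over all probes) and are termed called, which is 0.458% of those tested. Of these, 20 (0.173%) were higher and 33 (0.285%) lower in 25 mM glucose. They represented 37 named genes, 13 higher and 24 lower, and 15 probes without a gene symbol. At an unadjusted p under 0.05 stood 1050 probes, 9.07% of those tested, and the median standard error of a difference was 0.219. The number of arrays and the spread between them set this precision. With the difference of each run taken as 1 value, so that n = 4, limma called 17 probes (0.147%), of which 7 were among the 53. Without run A, B, C or D it called 9, 13, 8 and 6.

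Spp1, which encodes the secreted matrix phosphoprotein osteopontin, had the largest rise among named genes. Its score ran from -3.71 to 2.55 with a median of -0.355 in 5 mM glucose. In 25 mM glucose it ran from -1.10 to 3.22 with a median of 1.66. The groups overlapped, but 20 of 27 matched pairs were higher in 25 mM glucose. The fitted difference was 1.76 ± 0.391 (SE, limma adjusted p = 0.0142), and the 4 runs gave 1.07, 1.38, 1.66 and 2.80. Without runs A, B, C or D in turn, or with the runs as the unit, Spp1 was called in 1 of these settings, and with an estimated correlation within array sets it had adjusted p = 0.0849. Spp1 was the 1 called member of 24 measured extracellular matrix genes, whose median difference was 0.02 against 0.01 for all 6502 measured genes. By their first probe, 0.185% of all measured genes were called higher. Fibronectin, encoded by Fn1, stood at 0.08 ± 0.273 with 14 of 27 pairs higher (adjusted p = 0.967).

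Other called genes with higher scores in 25 mM glucose were Rgs3, Mpzl1, Npr1, Cttn and the first probes of Efna1 and Sgca. Rgs3 encodes a protein that switches off G protein alpha subunits. Its score ran from -2.89 to 2.59 with a median of -0.521 in 5 mM glucose and from -1.81 to 3.44 with a median of 0.767 in 25 mM. It rose by 1.29 ± 0.334 (adjusted p = 0.0446) and was higher in 23 of 27 pairs and in all 7 drug conditions, although the groups overlapped. Mpzl1, a cell surface glycoprotein that binds the phosphatase SHP2, rose by 1.05 ± 0.237 (adjusted p = 0.0153), with run differences from 0.249 to 1.93. Npr1, the receptor for atrial natriuretic peptide, rose by 0.663 ± 0.161 (22 of 27 pairs higher). Cttn, which encodes the actin-binding protein cortactin, rose by 0.662 ± 0.163 (23 of 27 pairs higher). The Eph receptor ligand gene Efna1 rose by 0.822 ± 0.215 on its first probe, while its second probe stood at -0.02. With the runs as the unit the first probe was not called (limma adjusted p = 0.181). Sgca encodes alpha-sarcoglycan, part of the dystrophin complex of striated muscle. Its first probe rose by 1.46 ± 0.381, and 1 array scored 8.60 (run B, 100 ng/mL rapamycin, 25 mM glucose). Without that array the Sgca difference was 1.14 ± 0.350 (adjusted p = 0.117), and its second probe stood at -0.33.

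Galt encodes galactose-1-phosphate uridylyltransferase, which feeds galactose into glucose metabolism. Its score ran from -1.55 to 1.43 with a median of -0.123 in 5 mM and from -0.534 to 2.06 with a median of 0.573 in 25 mM glucose. The 25 mM arrays lay higher in 19 of 27 pairs and in each of the 7 drug conditions, with overlap between the groups. Galt rose by 0.787 ± 0.193 (adjusted p = 0.0296), and the run differences lay between 0.442 and 1.31. Dnajc22, a member of the DnaJ co-chaperone family, rose by 0.762 ± 0.171 (adjusted p = 0.0153) with 22 of 27 pairs higher. The rule for named genes added 3 genes that missed the threshold. The amino acid transporter gene Slc7a7 stood at 0.725 ± 0.197 (24 of 27 pairs higher), the fucose mutarotase gene Fuom at 0.852 ± 0.231, and the actin and phosphatase regulator gene Phactr1 at 1.15 ± 0.312, each at adjusted p = 0.0519. The Phactr1 value included 1 array at 9.72 and was 0.781 ± 0.257 without it.

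**Figure D1:**
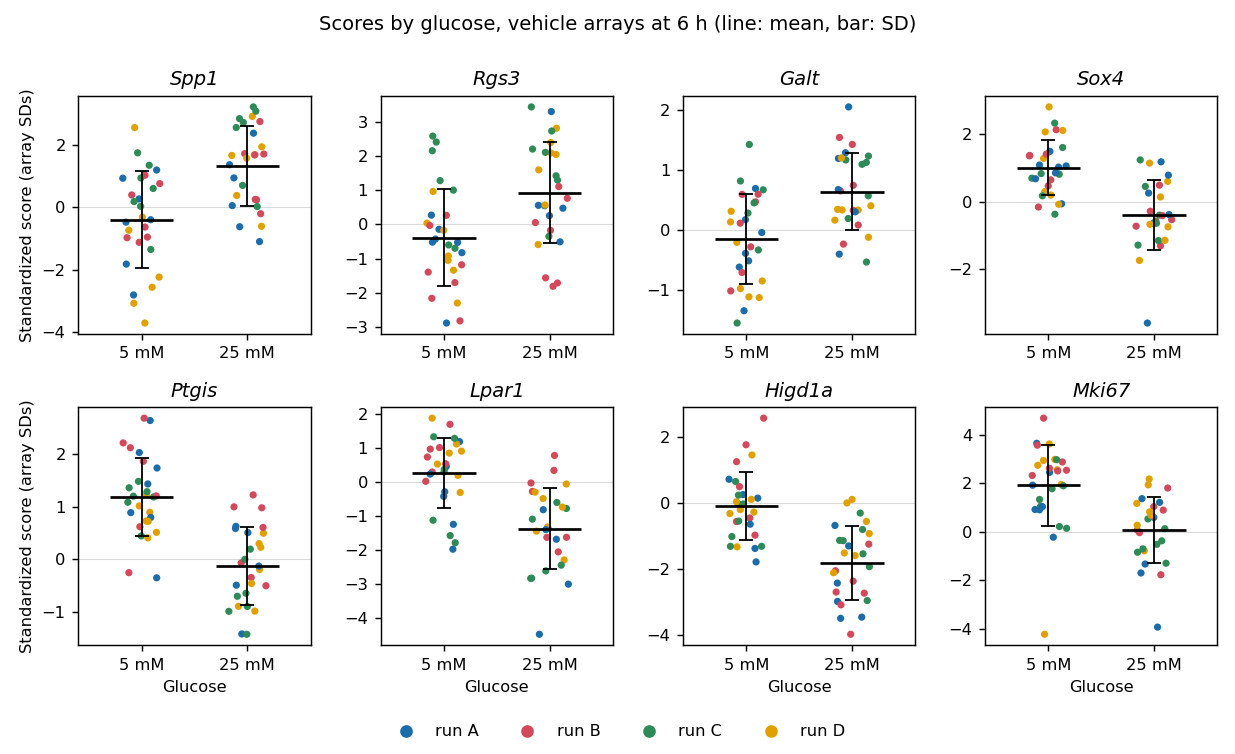
Standardized scores (array SDs, vertical axis) of 8 named genes in each vehicle array at 6 h, by glucose (28 arrays in 5 mM, 27 in 25 mM) and coloured by run, with the mean as a line and the SD as a bar. The means of Spp1, Rgs3 and Galt lie higher in 25 mM glucose and those of Sox4, Ptgis, Lpar1, Higd1a and Mki67 lower, and the arrays of both levels overlap in each panel.

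Most measured mitosis genes stood lower in 25 mM glucose, though few were called. Mki67 encodes Ki-67, which coats mitotic chromosomes and marks cycling cells. Its score ran from -4.24 to 4.68 with a median of 2.38 in 5 mM glucose and from -3.94 to 2.17 with a median of 0.264 in 25 mM. It was lower in 25 of 27 pairs and fell by 1.81 ± 0.478 (adjusted p = 0.0480), with run differences of -2.45, -2.64, -1.78 and -0.90. Pimreg, a regulator of the exit from metaphase, fell by 1.82 ± 0.456 (adjusted p = 0.0307) and was lower in 24 of 27 pairs. These were the 2 called among 22 measured mitosis genes, where 0.354% of all measured genes were called lower on their first probe. With an estimated correlation within array sets, Mki67 had adjusted p = 0.151 and Pimreg adjusted p = 0.118, and with the runs as the unit 0.0519 and 0.112, so neither was called there. At an unadjusted p under 0.05, 13 of the 22 were lower, where 296 of all 6502 genes were. In all, 20 of the 22 differences lay below 0 and the list median was -0.954, against 0.01 over all genes, where 3130 of 6502 lay below 0. The median was below 0 in each run, at -1.11, -1.41, -0.889 and -0.752. Genes of a list are not independent replicates, and these counts are a description. Cks2, which encodes a small subunit of cyclin-dependent kinases, was singled out after its values were seen. It stood at -1.43 ± 0.398 (adjusted p = 0.0630) with 25 of 27 pairs lower. Cks2 was called when limma took each run as 1 value (adjusted p = 0.0417). With the estimated correlation within array sets it was not called (adjusted p = 0.191). The mean mitosis score per array ran from -3.30 to 3.45 with a median of 1.14 in 5 mM glucose and from -1.46 to 1.70 with a median of 0.01 in 25 mM. DNA replication genes had 0 of 26 called and a median of -0.158, with Uhrf1, a DNA methylation maintenance factor, at -1.02 ± 0.383 and the PCNA gene Pcna at -0.469 ± 0.212. In RNA of whole cultures, fewer dividing cells and less of these transcripts per dividing cell cannot be told apart.

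Mitosis genes share a promoter element, the cell cycle genes homology region (TTTGAA), through which a repressor complex silences them in resting cells. The sequences are shown because the mitosis genes lay below 0 together. They run from 250 bases before to 50 bases after the start site in RefSeq's rat annotation (GRCr8), read 5′ to 3′ on the gene's strand, and capitals mark TTTGAA or its reverse complement TTCAAA.
Mki67, chr1:199952544-199952843, minus strand: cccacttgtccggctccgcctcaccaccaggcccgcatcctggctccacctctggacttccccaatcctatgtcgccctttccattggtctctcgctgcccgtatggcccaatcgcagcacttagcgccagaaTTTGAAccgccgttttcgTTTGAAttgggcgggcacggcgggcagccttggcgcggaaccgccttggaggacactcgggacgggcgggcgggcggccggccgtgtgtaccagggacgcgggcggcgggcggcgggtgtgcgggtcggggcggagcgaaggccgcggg
Cks2, chr17:13727470-13727769, minus strand: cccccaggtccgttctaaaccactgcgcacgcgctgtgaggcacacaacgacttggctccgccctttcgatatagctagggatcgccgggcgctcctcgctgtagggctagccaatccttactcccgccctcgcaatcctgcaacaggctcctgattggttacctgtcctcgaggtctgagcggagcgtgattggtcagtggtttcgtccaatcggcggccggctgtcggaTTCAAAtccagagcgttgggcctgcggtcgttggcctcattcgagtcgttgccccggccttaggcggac
Of the 22 measured mitosis genes 18 had a promoter in the table, and 14 (77.8%) held TTTGAA on either strand, against 18.3% of all 33469 promoters of that length. In Mki67 the matches begin 117 and 99 bases before the start site, and in Cks2 the match lies on the other strand, 19 bases before it. Both printed promoters hold a match, while that of Kif11, examined for the same element and not printed, held 0. A match is a description of these letters and not a measured binding site. Since mitosis genes share this element, its share describes the list, and its role in the glucose difference was not tested.

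Genes induced by low oxygen through the transcription factor HIF-1 were also below 0 as a group. Higd1a, a hypoxia-induced protein of the inner mitochondrial membrane, ran from -1.79 to 2.56 with a median of -0.123 in 5 mM glucose. In 25 mM glucose it ran from -3.98 to 0.099 with a median of -1.60. It was lower in 25 of 27 pairs and in all 7 drug conditions, and the groups overlapped over the middle of their ranges. Higd1a fell by 1.74 ± 0.433 (adjusted p = 0.0298), and its second probe stood at -1.53 ± 0.411 (adjusted p = 0.0509). It was the 1 called member of 15 measured HIF-1 targets, of which 14 lay below 0 with a median of -0.391. Over all 6502 measured genes, 0.354% were called lower and 3130 lay below 0. The call of the first Higd1a probe was lost with an estimated correlation within array sets (adjusted p = 0.118). It was also lost with the runs as the unit (adjusted p = 0.142) and with the left-out array kept (adjusted p = 0.0513). The second Higd1a probe was called when limma took each run as 1 value (adjusted p = 0.0417). With the estimated correlation it was not called (adjusted p = 0.151). Run medians of the list were -0.836, -0.502, -0.549 and -0.214. Members singled out after their values were seen missed the threshold narrowly. The mitophagy receptor gene Bnip3 stood at -1.44 ± 0.384 (adjusted p = 0.0503), and the kinase gene Pdk1, which restrains pyruvate entry into mitochondria, at -1.11 ± 0.298 (adjusted p = 0.0509). Bnip3 ran from -2.54 to 1.97 with a median of -0.265 in 5 mM and from -4.28 to -0.272 with a median of -1.47 in 25 mM glucose, so that all 25 mM arrays were below 0.

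HIF-1 binds the core ACGTG of the hypoxia response element. The promoters of the 3 genes named above are given for this reason, over the same window and from the same source, with ACGTG or its reverse complement CACGT in capitals; where both overlap they form CACGTG.
Higd1a, chr8:130400839-130401138, minus strand: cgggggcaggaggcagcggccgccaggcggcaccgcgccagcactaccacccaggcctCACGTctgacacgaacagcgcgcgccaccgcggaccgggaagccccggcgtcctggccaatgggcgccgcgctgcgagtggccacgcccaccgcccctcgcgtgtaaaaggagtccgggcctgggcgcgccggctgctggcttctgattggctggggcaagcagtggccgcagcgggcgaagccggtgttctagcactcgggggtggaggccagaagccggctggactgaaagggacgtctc
Bnip3, chr1:203154913-203155212, minus strand: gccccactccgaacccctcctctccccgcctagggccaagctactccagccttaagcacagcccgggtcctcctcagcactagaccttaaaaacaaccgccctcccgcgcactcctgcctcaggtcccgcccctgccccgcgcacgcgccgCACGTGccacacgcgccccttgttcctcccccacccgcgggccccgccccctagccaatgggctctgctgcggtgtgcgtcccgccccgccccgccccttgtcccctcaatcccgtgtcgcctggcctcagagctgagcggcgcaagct
Pdk1, chr3:77113264-77113563, plus strand: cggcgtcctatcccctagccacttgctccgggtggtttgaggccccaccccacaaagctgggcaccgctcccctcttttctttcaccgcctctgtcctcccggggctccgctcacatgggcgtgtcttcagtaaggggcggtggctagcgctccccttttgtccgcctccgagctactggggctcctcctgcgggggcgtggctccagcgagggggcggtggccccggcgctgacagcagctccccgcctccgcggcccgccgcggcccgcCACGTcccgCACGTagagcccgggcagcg
The core begins 192 bases before the start site in Higd1a, 99 and 98 bases before it on the opposite strands in Bnip3, and at positions 22 and 31 in Pdk1, counting the start site as position 1. Of the 15 measured HIF-1 targets 12 had a promoter in the table, and 10 (83.3%) held the core on either strand, against 19.3% of all promoters and 2 of the 18 mitosis promoters (11.1%). A list of HIF-1 targets would often hold this core whatever the glucose level. The share therefore describes the list, and a role of HIF-1 in the glucose difference was not tested. The E-box CACGTG, which MondoA and ChREBP elements also contain, was held by 6.42% of all promoters.

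Sox4 and Ptgis had the smallest adjusted p of all probes. Sox4 encodes a transcription factor with an HMG box. Its score ran from -0.371 to 2.81 with a median of 0.941 in 5 mM glucose and from -3.60 to 1.24 with a median of -0.532 in 25 mM. It was lower in 25 of 27 pairs and fell by 1.39 ± 0.242 (adjusted p = 0.000379), with run differences from -1.59 to -1.21. Of the 53 calls, Sox4 was the 1 kept without each run in turn, with the runs as the unit (adjusted p = 0.0417) and with arrays of a run, hour, insulin and glucose set as a random block (adjusted p = 0.0108). Ptgis encodes prostacyclin synthase, which makes the vasodilator prostacyclin. It ran from -0.347 to 2.68 with a median of 1.19 in 5 mM and from -1.42 to 1.22 with a median of -0.125 in 25 mM glucose, and was lower in 26 of 27 pairs. Ptgis fell by 1.33 ± 0.235 (adjusted p = 0.000379, and 0.0519 with the runs as the unit).

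Lpar1 and Plpp3 were also called lower. Lpar1 encodes a receptor for the growth-promoting lipid lysophosphatidic acid. It ran from -1.97 to 1.89 with a median of 0.423 in 5 mM and from -4.47 to 0.790 with a median of -1.36 in 25 mM glucose. Both of its probes were called, at -1.63 ± 0.351 and -1.67 ± 0.401, and the 4 runs gave -1.83, -1.39, -1.71 and -1.69 on the first. Plpp3, a surface phosphatase that degrades the same lipid, fell by 1.18 ± 0.282 (adjusted p = 0.0261) and was lower in 24 of 27 pairs. Anxa1, a phospholipid-binding protein that dampens inflammation, fell by 1.23 ± 0.323 (adjusted p = 0.0471, and 0.0519 with the runs as the unit).

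Wfdc21, which encodes a whey acidic protein domain protein, had the largest fall, by 1.92 ± 0.379 (adjusted p = 0.00256). Its runs were uneven, at -2.49, -0.16, -2.19 and -2.89. Medag, a gene linked to adipocyte differentiation, fell by 1.51 ± 0.301 with 24 of 27 pairs lower. A DMSO array of run A scored -8.26 in 25 mM glucose, and without it the Medag difference was -1.20 ± 0.265 (adjusted p = 0.0137). Dut, which encodes the dUTPase that keeps uracil out of DNA, fell by 1.56 ± 0.362, with run differences from -2.57 to -0.25. Crim1, a membrane protein that binds bone morphogenetic proteins, fell by 1.21 ± 0.263 on its first probe, and its second stood at -0.781 ± 0.301 (adjusted p = 0.325). The second probe of Prps2, a phosphoribosyl pyrophosphate synthetase gene of nucleotide synthesis, fell by 1.36 ± 0.251 (adjusted p = 0.000537), and its first stood at -1.13 ± 0.304 (adjusted p = 0.0503). Prps2 falls outside the rule for named genes, which takes the first probe of each gene, and was chosen after its values were seen.

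**Figure D2:**
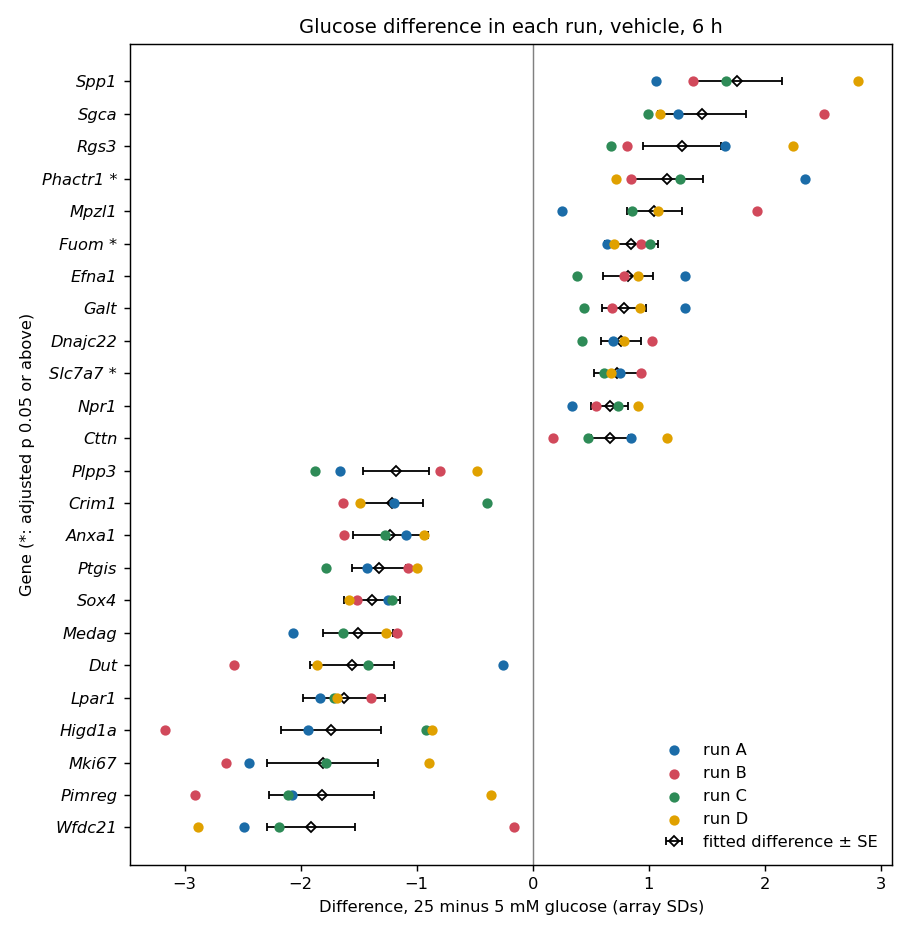
Differences (25 minus 5 mM glucose, array SDs, horizontal axis) of the 24 named genes in each of the 4 runs (coloured points) and as fitted with SE (open diamonds), where an asterisk marks an adjusted p of 0.05 or above. All 4 runs lie on the same side of 0 for each gene, which the rule for naming required, with run B of Wfdc21 at -0.16 and run A of Dut at -0.25 nearest to 0 among the genes that fell.

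Whether the glucose difference depended on the drug was tested over the 7 conditions. A moderated F test of the 6 drug doses against DMSO called 0 probes by limma, with 649 (5.61%) at an unadjusted p under 0.05. The smallest unadjusted p values among named genes belonged to Hmgb1, Fgfbp1 and Prdx3, each at adjusted p = 0.687. The chromatin protein gene Hmgb1 stood at 1.07 in DMSO, -3.23 at 1 ng/mL rapamycin and -0.05 at 1000 ng/mL paclitaxel. Across all probes, the glucose differences of pairs of drug conditions correlated between -0.091 and 0.31, and those of pairs of runs between 0.03 and 0.178. Of the 53 called probes, 39 had the same sign in all 7 conditions. They were called on the mean of these same 7 differences, which favours a shared sign. The count is given without its share over all probes. Sox4 lay between -1.73 and -0.692 and Plpp3 between -1.36 and -1.02 over the conditions. Spp1 ranged from -0.07 at 1 ng/mL paclitaxel to 3.54 at 0.01 ng/mL rapamycin, and Dut from -3.64 at 1 ng/mL rapamycin to 0.190 at 1 ng/mL paclitaxel. Mki67 and Pimreg were below 0 in 6 conditions and at 0.287 and 0.562 at 1 ng/mL paclitaxel. In the 4 DMSO pairs alone, Higd1a stood at -2.99, Medag at -2.64, Spp1 at 1.79 and Sox4 at -1.38. The Medag value held an array at -8.26 (run A, 25 mM glucose), and the Spp1 value an array at -3.71 (run D, 5 mM). Pimreg stood there at -2.37, Mki67 at -2.24 and the first probe of Lpar1 at -1.67. Some other called named genes lay nearer to 0 in the DMSO pairs, among them Dut at -0.07, Cttn at 0.15, Efna1 at 0.20 and Galt at 0.29. With the DMSO arrays alone, 4 against 4, limma called 4 probes, 0 of them among the 53.

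**Figure D3:**
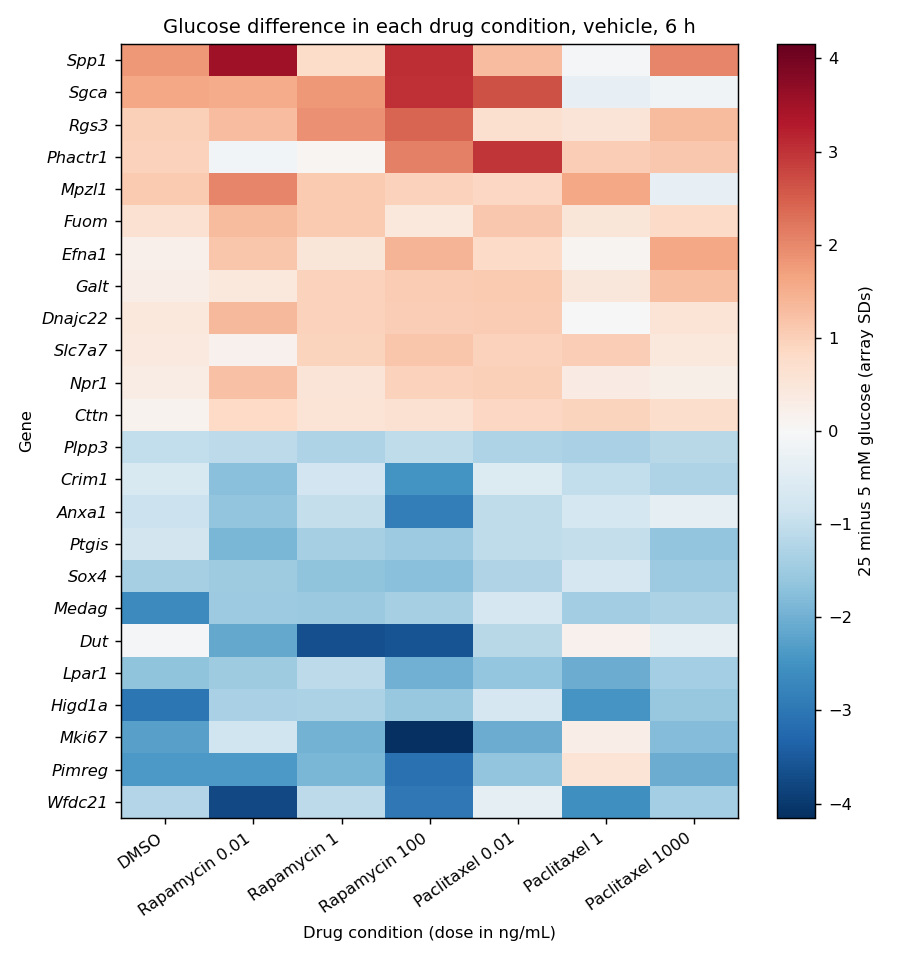
Glucose difference (25 minus 5 mM, array SDs, colour) of the 24 named genes in each of the 7 drug conditions at 6 h, with doses in ng/mL. Sox4, Plpp3, Lpar1, Ptgis, Higd1a and Medag are below 0 in all 7 columns, while Spp1, Mki67, Pimreg and Dut cross 0 at 1 ng/mL paclitaxel. At that dose the run D array in 5 mM glucose scored -4.24 for Mki67 and -4.96 for Pimreg.

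Genes of glucose metabolism and of the pathways linked to high glucose were read as lists. Targets of MondoA and ChREBP had 0 of 19 called, with 14 above 0 and a median of 0.25. Over all 6502 measured genes, 3372 lay above 0. Txnip, the best known of them, stood at 0.09 ± 0.459 (adjusted p = 0.977), with 14 of 27 pairs higher. Its score ran from -5.16 to 3.53 in 5 mM and from -4.87 to 3.55 in 25 mM glucose, and the runs gave -0.34, -2.91, 2.44 and 1.51. The runs therefore did not share a direction for Txnip. Its relative Arrdc4 stood at 0.378 ± 0.247, the early response gene Klf10 at -0.717 ± 0.218 (adjusted p = 0.112) and the transketolase gene Tkt at 0.638 ± 0.202 (adjusted p = 0.144).

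Glucose uptake and glycolysis genes had 0 of 24 called, with 17 below 0 and a median of -0.438. Over all 6502 measured genes, 3130 lay below 0. Those with the smallest unadjusted p were Pgk1, a glycolytic kinase gene also listed under HIF-1, at -1.37 ± 0.374 (adjusted p = 0.0528), and the phosphofructokinase gene Pfkl at -0.756 ± 0.209 (adjusted p = 0.0584). 10 of the 24 were lower at an unadjusted p under 0.05, where 296 of all 6502 genes were. The glucose transporter gene Slc2a1 stood at -0.594 ± 0.364 (adjusted p = 0.668), with 19 of 27 pairs lower. Hk2 had no probe under that symbol. Akr1b1, which encodes the aldose reductase of the polyol pathway, stood at -0.143 ± 0.311, and 0 of 10 polyol and osmotic response genes were called.

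TGF-beta ligands, receptors and targets had 0 of 20 called and a median of -0.239, led by the inhibitory SMAD genes Smad7 (-1.16 ± 0.340, adjusted p = 0.0914) and Smad6 (-0.629 ± 0.194, adjusted p = 0.123). Tgfb1 had no probe under that symbol. Contractile genes had 0 of 16 called and a median of -0.123. Among them Tagln, an actin-binding marker of differentiated smooth muscle, stood at -0.910 ± 0.405 (adjusted p = 0.462) with 17 of 27 pairs lower, and the dystrophin-linked gene Pgm5 at 1.01 ± 0.417. NADPH oxidase and antioxidant genes had 0 of 32 called, with the glutathione synthetase gene Gss at 0.500 ± 0.153 and the quinone reductase gene Nqo1 at 1.16 ± 0.407. Protein kinase C and diacylglycerol genes had 0 of 10 and NF-kappaB response genes 0 of 20 called. Sterol synthesis genes lay above 0 in 14 of 15 cases with a median of 0.451 and 0 called, led by Mvd (1.18 ± 0.354, adjusted p = 0.104) and Lss (0.715 ± 0.249), which encode enzymes of that pathway. ATF4 targets and amino acid genes lay above 0 in 17 of 21 with a median of 0.468 and 0 called, led by Aldh1l2 (0.793 ± 0.285) and Pck2 (0.909 ± 0.326). For both lists the background is 3372 of all 6502 measured genes above 0.

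**Figure D4:**
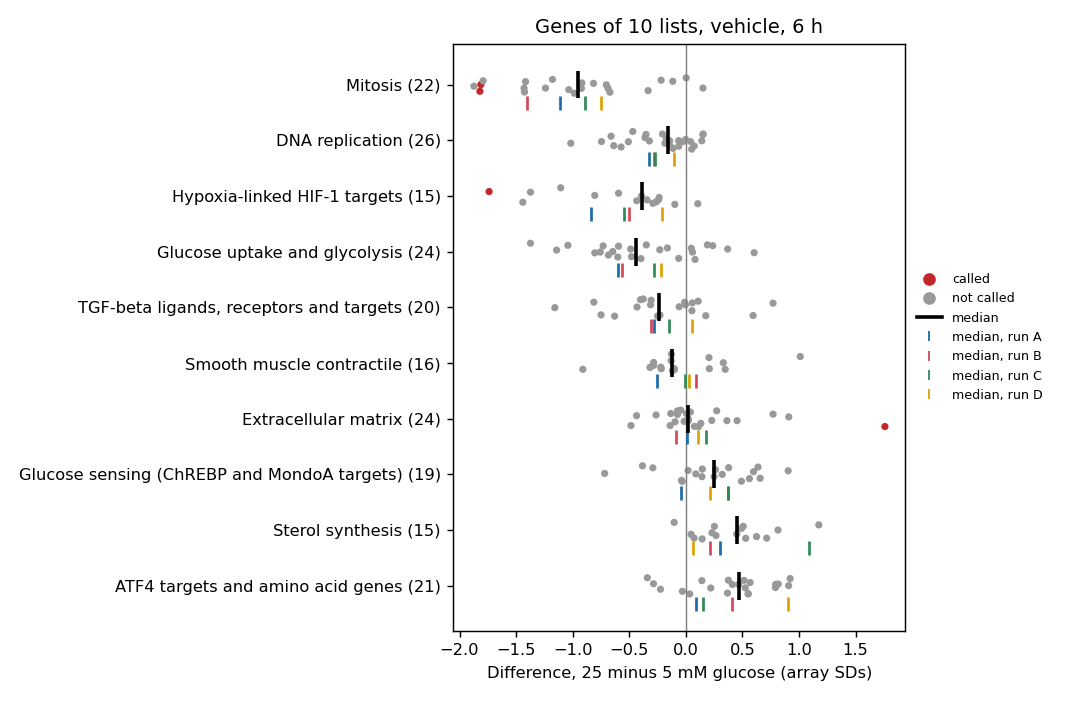
Differences (25 minus 5 mM glucose, array SDs, horizontal axis) of the measured genes of 10 lists, with called genes in red, the list median as a black bar and the medians of the 4 runs as coloured bars. The mitosis median lies at -0.954 and the run medians of the mitosis, HIF-1 and glycolysis lists lie below 0 in all 4 runs, with 2, 1 and 0 members called.

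The same glucose comparison in cells given 100 nM insulin for 6 h used 56 other arrays. It called 107 probes (0.924%), 41 higher (0.354%) and 66 lower (0.57%), of which 22 were among the 53. These 22 were 41.5% of the 53 and 20.6% of the 107, and each had the same sign in both. The differences correlated across the 11575 probes at r = 0.437, and 52 of the 53 had the same sign with insulin. Probes are not independent replicates, and this correlation is a description. The count of same signs, here and at 24 h, is given without its share over all probes. With insulin Spp1 rose by 2.11 ± 0.386, Rgs3 by 1.69 ± 0.330, Galt by 0.732 ± 0.191 and Dnajc22 by 0.756 ± 0.169. Sox4 fell by 1.54 ± 0.239, Lpar1 by 2.01 ± 0.346, Mki67 by 2.27 ± 0.473 and Pimreg by 1.85 ± 0.450. Ptgis stood at -0.498 ± 0.232 with insulin, Higd1a at -0.771 ± 0.427 and Sgca at 0.116 ± 0.376, and none of these was called there.

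The test of the difference between cells without and with insulin called 0 probes by limma, with 399 (3.45%) at an unadjusted p under 0.05, and 0 with the runs as the unit. For Ptgis the difference between the settings had an unadjusted p of 0.0129, for Sgca 0.0132 and for Phactr1 0.00566, each at adjusted p = 0.9999. The named genes with the smallest unadjusted p were the homeobox gene Gsx2, which stood at 0.295 without and -0.419 with insulin, Gpcpd1 (-0.353 and 0.630) and Tnip1 (-0.173 and 0.668). List counts differed in number. With insulin 9 of 22 mitosis genes and 7 of 26 DNA replication genes were called lower, where 0.738% of all genes were, and 4 of 15 sterol synthesis genes were called higher, where 0.384% were. Their medians with insulin were -1.25, -0.690 and 0.876, against -0.954, -0.158 and 0.451 without it. Whether the lists differ between the settings was not tested.

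At 24 h without insulin, again on 56 other arrays, 314 probes were called (2.71%), 166 higher (1.43%) and 148 lower (1.28%). Of these, 10 were among the 53, which is 18.9% of the 53 and 3.18% of the 314, all with the same sign. The correlation across probes was 0.135, and 49 of the 53 had the same sign at 24 h. At 24 h, when 1.49% of all measured genes were called higher, Spp1 rose by 1.86 ± 0.386, Rgs3 by 1.35 ± 0.330, Galt by 0.761 ± 0.191, Dnajc22 by 0.713 ± 0.169, Efna1 by 0.907 ± 0.213 and Npr1 by 0.560 ± 0.159. The other named genes called higher at 6 h were not called at 24 h, with Sgca at 0.342 ± 0.376, Mpzl1 at 0.295 ± 0.234 and Cttn at 0.062 ± 0.162. The 12 named genes called lower at 6 h lay nearer to 0 at 24 h or above it. Named genes were chosen by their 6 h differences, so values in other arrays can lie nearer to 0 through that choice alone. Sox4 stood at -0.322 ± 0.239, Mki67 at -0.971 ± 0.473, Anxa1 at 0.518 ± 0.319 and Medag at 0.629 ± 0.297. Kcnj8, a potassium channel gene outside the naming rule that was chosen after its values were seen, fell by 1.04 ± 0.257 at 6 h and by 1.15 ± 0.254 at 24 h. For most of these the difference between the hours was not called, with adjusted p = 0.200 for Sox4, 0.741 for Mki67 and 0.0582 for Anxa1.

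The test of the difference between 6 and 24 h called 13 probes (0.112%), 8 (0.0691%) higher and 5 (0.0432%) lower at 6 h. Of these, 9 had a gene symbol, 9 were also called at 24 h and 2 also at 6 h. Named genes with the higher glucose difference at 6 h were Wars1, Ppp1r15a, Eif2b3 and Sel1l. Wars1, a tryptophan tRNA ligase gene, stood at 0.852 ± 0.374 at 6 h and fell by 1.66 ± 0.369 at 24 h. Its scores at 6 h ran from -2.57 to 1.48 in 5 mM and from -1.65 to 2.06 in 25 mM glucose. Ppp1r15a, which encodes a phosphatase subunit that restores translation after stress, stood at 0.350 ± 0.395 and fell by 2.04 ± 0.390 at 24 h. Eif2b3, a subunit gene of the initiation factor that stress inhibits, stood at 0.763 ± 0.309 at 6 h and fell by 1.24 ± 0.305 at 24 h. The reticulum degradation gene Sel1l stood at 0.384 ± 0.157 and fell by 0.642 ± 0.155 at 24 h. In the other direction, Medag and the centrosome gene Cep20 fell at 6 h (-1.51 and -0.907) and stood at 0.629 and 0.295 at 24 h, and the exchange factor gene Psd3 stood at -0.821 and 0.673. Rbm12, which encodes an RNA-binding protein, stood at -0.379 at 6 h and rose by 0.735 ± 0.180 at 24 h. Taking each run as 1 value, 0 of these differences were called by limma (883 at an unadjusted p under 0.05). Without run B or D it called 0 (871 and 814 at an unadjusted p under 0.05), and without run A or C it called 65 and 51.

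**Figure D5:**
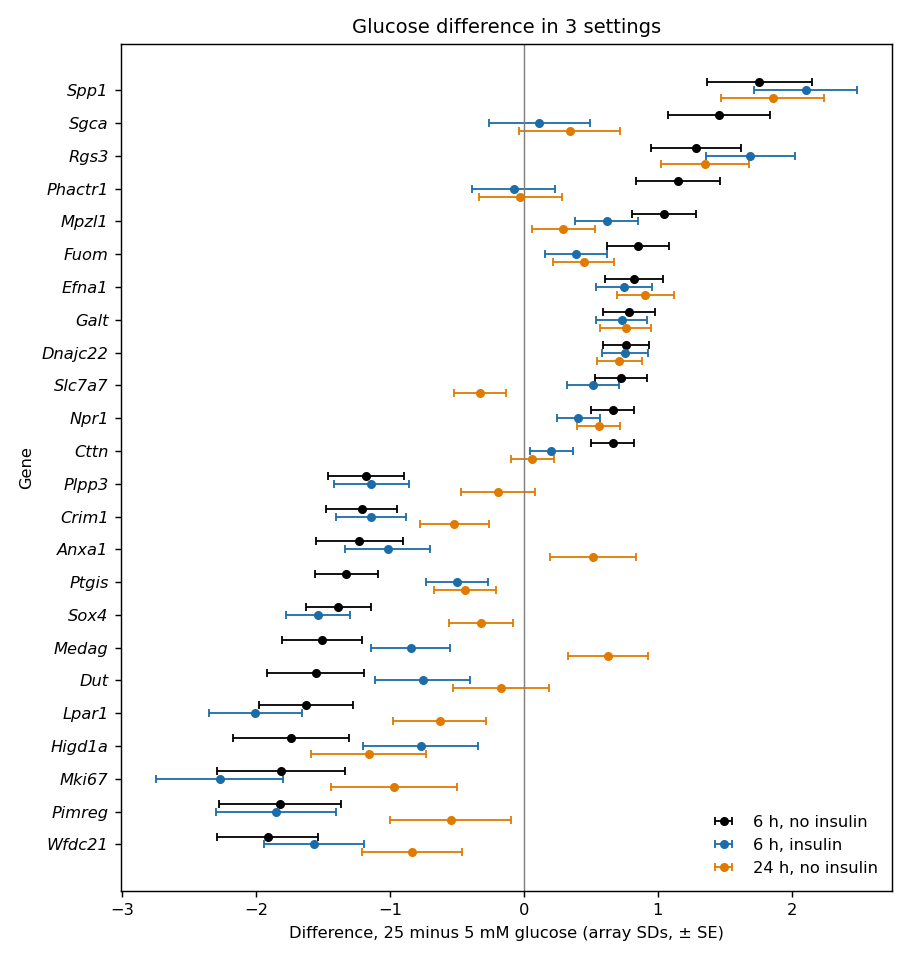
Fitted glucose difference (25 minus 5 mM, array SDs, with SE, horizontal axis) of the 24 named genes at 6 h without insulin (black), 6 h with insulin (blue) and 24 h without insulin (orange), from 55, 56 and 56 arrays. Spp1, Rgs3, Galt and Dnajc22 lie above 0 in all 3 settings, while Sox4, Plpp3 and Anxa1 lie lower at both 6 h settings than at 24 h.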

How the data were processed

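The values were scores in 1 table that the authors deposited, covering 11575 features on 224 arrays. It had 0 missing values, and 0 of its columns were unused. Per the design text, the authors normalized the arrays by loess, removed dim or incomplete features, imputed missing values from nearest neighbours, removed principal components linked to the replicate runs and standardized the data. No source used here gives the scale before standardization, the log base or the direction of the ratio, so scores were fitted as deposited. The lowest correlation of 2 arrays was -0.526, and 1.46% of array pairs lay under -0.3, which leaves the direction unsettled. Dish size, serum level and length of quiescence differ between the labels and the design text. Removing run-linked components can lower the spread between runs that a fit sees.

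Genes were named from the platform annotation, where 7473 probes had 1 symbol, 2 several and 4100 none, for 6502 genes in all. The RefSeq table held the Entrez identifiers of 7461 of them, and 0 symbols changed. For the 854 genes with several probes the first in the table stood for the gene, and 0 called genes had probes called in opposite directions. Of 8 called genes with several probes, 5 had all probes on the same side of 0.

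limma 3.58.1 in R 4.3.3 fitted 56 group means and run as a fixed block to 223 arrays, with 164 residual degrees of freedom, 6.07 prior ones and a median residual SD of 0.811. Glucose differences were averaged over the 7 drug conditions with equal weight, tested two-sided and adjusted by Benjamini-Hochberg over all probes. The run letter is in the sample titles and the design text names replicate runs, and the pairing rests on these. Deviations from group means correlated on average at 0.1014, 0.0464, 0.0789 and 0.0298 within runs A to D and at -0.0436 between runs. The procedure was tested on simulated data.

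Named genes were the 12 largest rises and 12 largest falls among genes whose first probe was called and lay on the same side of 0 in each run, filled by the smallest unadjusted p where fewer were called. They also include called members of described lists or else the 2 with the smallest p, called interactions or else the 3 with the smallest p, and a fixed set of genes whatever their result (Txnip, Arrdc4, Slc2a1, Hk2, Akr1b1, Spp1, Tgfb1, Fn1 and Tagln, with a further gene that is not reported here). The comparison, the members and the lists were chosen with earlier results of these data known. Alternatives changed the block, the arrays, the drug conditions, the scaling and the unit of replication.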

Additional observations from a re-analysis of the deposited data

Results flagged for a closer look

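For 3 of 30 named genes, the difference of 1 run stood apart from the other 3 by Dixon's criterion, which chance alone meets in about 1 group in 20. Run B gave 2.51 for the sarcoglycan gene Sgca, where the other runs lay between 0.996 and 1.25. Run C gave -0.245 for Fn1, where the others lay between 0.14 and 0.20, and -1.41 for Tagln, where the others lay between -0.73 and -0.67.

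For 8 named genes the glucose difference at 6 h differed from that at 24 h by limma, each without insulin. The 6 h minus 24 h values were 2.52 ± 0.526 for Wars1, 2.39 ± 0.555 for Ppp1r15a, 2.00 ± 0.434 for Eif2b3 and 1.03 ± 0.220 for Sel1l. They were -2.14 ± 0.423 for Medag, -1.49 ± 0.308 for Psd3, -1.20 ± 0.290 for Cep20 and -1.11 ± 0.257 for Rbm12. The adjusted p values ran from 0.00643 for Medag to 0.0489 for Cep20, and limma called 0 of them with the runs as the unit, with 883 of all probes at an unadjusted p under 0.05.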

How the results depend on the processing

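None of the 21 named genes that were called changed direction in 28 settings, and the medians of the mitosis, DNA replication, HIF-1, glycolysis, sterol and ATF4 lists kept their sign in all 28. The naming rule required the same side of 0 in each run, so settings that leave out or regroup runs could hardly turn these genes. The number called moved with how runs and drug conditions entered. Against 53 calls, limma gave 35 with no replicate block, 131 with run by hour as a block, 116 with the compared groups only, 17 with the 4 runs as the unit and 6 with arrays of a set as a random block (consensus correlation 0.0495). Leaving out 1 run gave 6 to 13 calls, and 3 to 7 of the 21 named genes kept their call. With the runs as the unit 3 of the 21 kept it, and with the random block 4. Leaving out rapamycin 0.01, 1 or 100 ng/mL gave 14, 11 and 17, leaving out paclitaxel 0.01, 1 or 1000 ng/mL gave 20, 57 and 27, and leaving out DMSO gave 42. DMSO arrays alone gave 4. Keeping the near-identical array gave 66, of which 48 were among the 53. Other scalings, a robust estimate of the spread and named probes only gave 51 to 61, and the median of all probes stayed at 0.02 or nearer to 0. Leaving out, one at a time, arrays on which a named gene was beyond 5 array SDs, chosen after seeing the data, gave 36 to 58.

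For the hour difference, against 13 calls, keeping the near-identical array gave 33, run by hour as a block 69, the runs as the unit 0 (883 at an unadjusted p under 0.05) and leaving out 1 run 0 to 65. The drug difference gave 0 to 2 calls when 1 run was left out. The insulin difference stayed at 0 calls in each setting run, also without the insulin array of the near-identical pair (380 at an unadjusted p under 0.05). Genes that were not called changed sign as follows. Txnip ran from -0.776 to 1.17 when 1 run was left out, with -0.390 without run D, and stood at -0.259 without rapamycin 1 ng/mL, -0.315 without paclitaxel 0.01 ng/mL and -0.102 without the array beyond 5 array SDs. Akr1b1 ran from -0.494 to 0.043 when 1 run was left out, Tagln stood at 0.364 in DMSO arrays alone, and Fn1 at -0.0176 and -0.00852 without rapamycin 0.01 and 1 ng/mL. The cause of these shifts was not tested. The array scores carry no counts, and the number of arrays and the spread between arrays and runs limit the precision.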

Other observations

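The other called genes with a symbol, named here after their values were seen, fall outside the rule for named genes. Among genes higher in 25 mM glucose were Shpk, the sedoheptulose kinase gene that borders the pentose phosphate pathway (0.922 ± 0.236), Rasgrp2, an exchange factor gene for the GTPase RAP1 (0.922 ± 0.239), Psmd2, a regulatory subunit of the proteasome (0.585 ± 0.154), and the second probe of Btbd3 (1.27 ± 0.335, with the first at -0.01). Psmd2 was the 1 called of 31 proteasome genes, where 0.185% of all measured genes were called higher. The second probe of Shpk stood at 0.153 ± 0.142. For Btbd3 the called probe reached 8.07 in 25 mM glucose, where its median was 0.418. The runs did not share a side of 0 for Shpk's first probe (-0.00386 in run C), Rasgrp2 (-0.111 in run B) and Psmd2 (-0.0303 in run C).

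Of the genes lower in 25 mM glucose, Kcnj8, the pore of the vascular ATP-sensitive potassium channel, fell by 1.04 ± 0.257, and the sodium-calcium exchanger gene Slc8a1 fell by 0.883 ± 0.218. The proprotein convertase gene Pcsk5 fell by 1.11 ± 0.269, the Golgi mannosidase gene Man1a1 by 0.837 ± 0.207 and the sialyltransferase gene St3gal5 by 0.792 ± 0.197. Also lower were Dctpp1, which cleans the nucleotide pool (-1.16 ± 0.284), the histone demethylase gene Kdm3a (-0.964 ± 0.254), the kinase gene Dclk1 (-0.925 ± 0.232), the survival gene Mcl1 (-0.615 ± 0.143) and Acsm3 (-0.609 ± 0.162).

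At 24 h without insulin, 10 of 21 ATF4 target and amino acid genes and 8 of 16 endoplasmic reticulum genes were called lower in 25 mM glucose, where 1.23% of all measured genes were. The chaperone gene Hspa5 fell there by 2.83 and stood at -0.31 at 6 h, and the kinase-like gene Trib3 fell by 2.37 and stood at -0.03. The 24 h medians of these lists were -1.15 and -0.819, and the 6 h medians 0.468 and -0.184. Of the genes in these lists, Sel1l alone was called for the difference between the hours.

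With the 4 DMSO pairs alone, the 4 called probes were those of Prkx (5.31), Cfc1 (3.64), Pde7a (2.71) and a probe without a gene symbol (5.04), named after their values were seen. Over all 7 conditions these stood at 0.957, 0.977, 0.384 and 0.835, and none was called.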
